A study of Mus musculus with 6 samples.

Results

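The genes described here encode the enzymes and partner subunits that modify transfer RNAs, apart from the 5-methylcytosine writers of the NSUN family. They were taken by name, as a fixed list of 52 gene symbols, from an expression table of 54532 genes, and all 52 symbols were found once each. The table comes from 6 RNA-seq libraries of mouse macrophages differentiated in culture from bone marrow, 3 labelled NSUN2-KO and 3 NC. Cells of both groups were driven to the inflammatory M1 state with LPS and IFN-γ, and no unstimulated cells were analysed here. NC is not spelled out, and neither age, strain nor sex of the animals, nor the knockout method or any Cre driver, nor whether marrow was pooled is stated. The libraries are called biological replicates without a record of which animal gave which, so p-values measure only the spread between these libraries. The comparison asks whether loss of NSUN2, a tRNA and mRNA cytosine methyltransferase, is accompanied by altered mRNA levels of the other tRNA modification enzymes.

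Transfer RNAs carry more kinds of chemical modification than any other RNA. Modifications of the anticodon loop, such as those at the wobble uridine or beside the anticodon, tune how codons are read, whereas modifications of the body of the tRNA mostly stabilize its fold. Cytosolic and mitochondrial tRNAs are modified by partly separate enzymes, nearly all encoded in the nucleus. A macrophage switching to the M1 state translates large amounts of newly made cytokine mRNA, which is the setting in which the levels below were measured.

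Levels are given in FPKM, fragments scaled to gene length and library size, as the authors deposited them. The members were expressed at low to moderate levels. The minimum set for testing, an average of 1 FPKM across libraries, was reached by 29 of the 52, and 23 lay below it. The 29 tested members had means of 1.03 to 10.8 FPKM with a median of 2.34 FPKM, against a median of 6.38 FPKM over all 9443 tested genes. Only 6 members exceeded a mean of 5 FPKM, namely Elp2, Elp5, Urm1, Pus10, Trit1 and Mettl6. Each tested member rested on 47 to 1807 reads per library, with a median of 362, recovered from the deposited values. The members lay on 19 chromosomes with at most 5 on any chromosome.

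**Figure D1:**
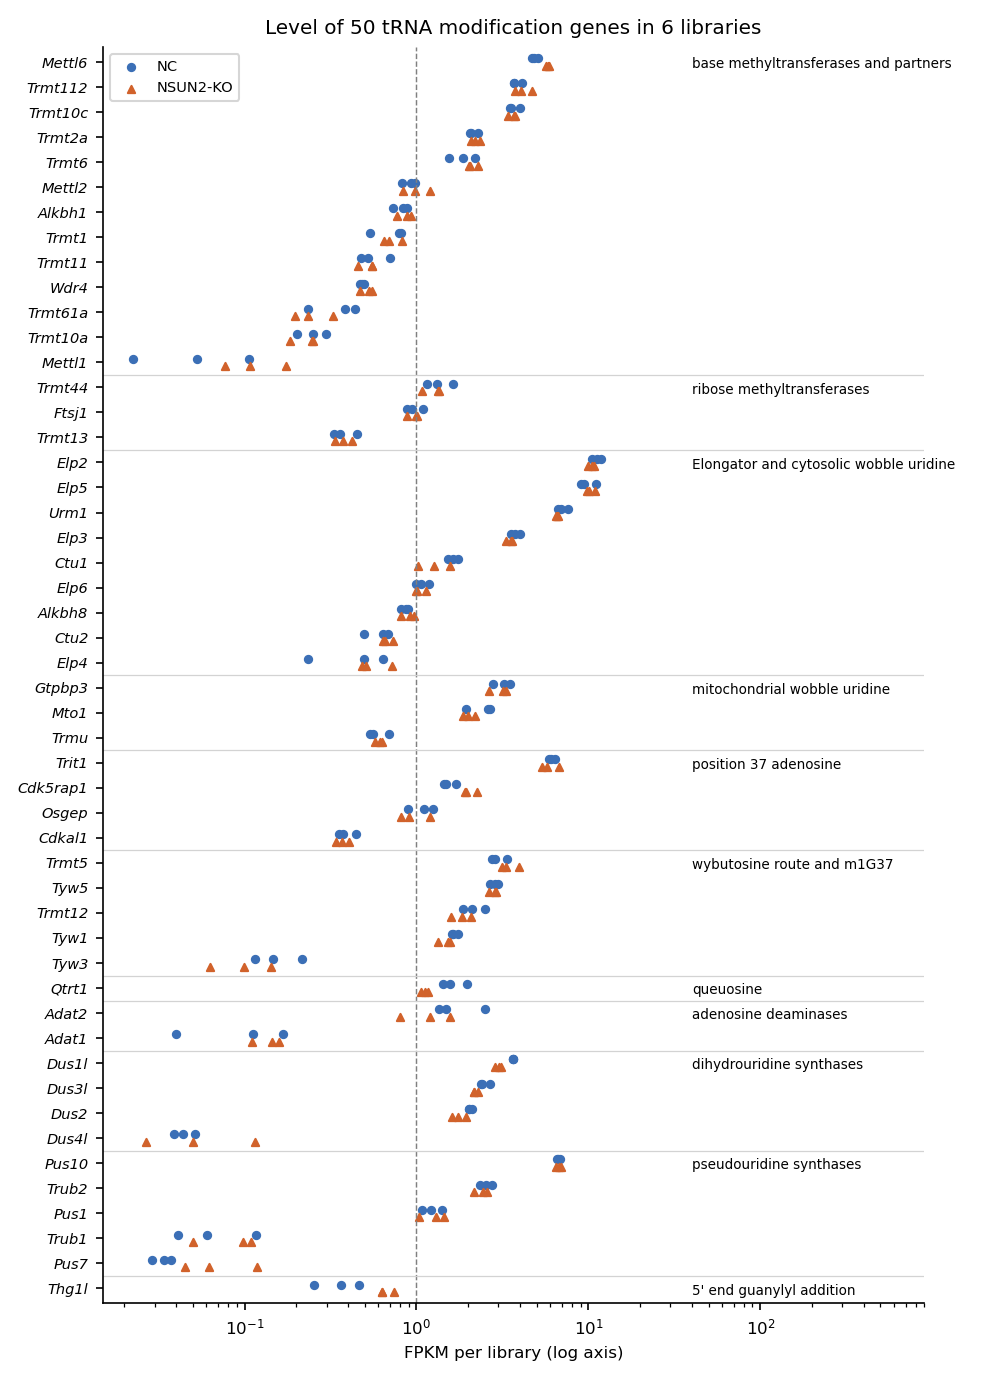
FPKM (log axis) of 50 members in each of the 6 libraries, with NC as blue circles and NSUN2-KO as orange triangles, grouped by role; the dashed line marks 1 FPKM. Within most members the groups lie over each other; Adat3 and Pus3, listed at 0 in all 6 libraries, are not drawn.

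Against this background 1 of the 29 tested members passed the test and 28 did not. The test was limma's moderated test on log2(FPKM + 1), with Benjamini-Hochberg adjustment over all 9443 genes and a call at an adjusted p below 0.05. Mettl6 was higher in NSUN2-KO and no member was lower. The called share of members was 3.45%, where 8.49% of all tested genes were called, 4.19% higher and 4.3% lower. This contrast depended on the genes tested. When only the 8521 protein-coding genes were tested, 4 of the 29 members were called, 2 higher and 2 lower. Among those 8521 genes 480 were called higher and 541 lower. At an unadjusted p below 0.05 there were 4 members (13.8%), Mettl6, Dus1l, Qtrt1 and Cdk5rap1, against 25.5% of all tested genes. The 3 values of 1 group lay entirely above or below those of the other in 7 members (24.1%), 2 higher and 5 lower in NSUN2-KO, against 31.1% of all tested genes. The log2 fold change, NSUN2-KO minus NC, was negative in 20 members and positive in 9, with a median of -0.07 beside -0.01 over all tested genes, of which 4892 were negative and 4551 positive. This lean was that of the members above the minimum: the members' median was -0.02 over the 49 in the read-based test described below and -0.01 over the 50 with any reads when no filter was used. The tested members' fold changes ran from -0.34 for Adat2 to 0.26 for Cdk5rap1.

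**Figure D2:**
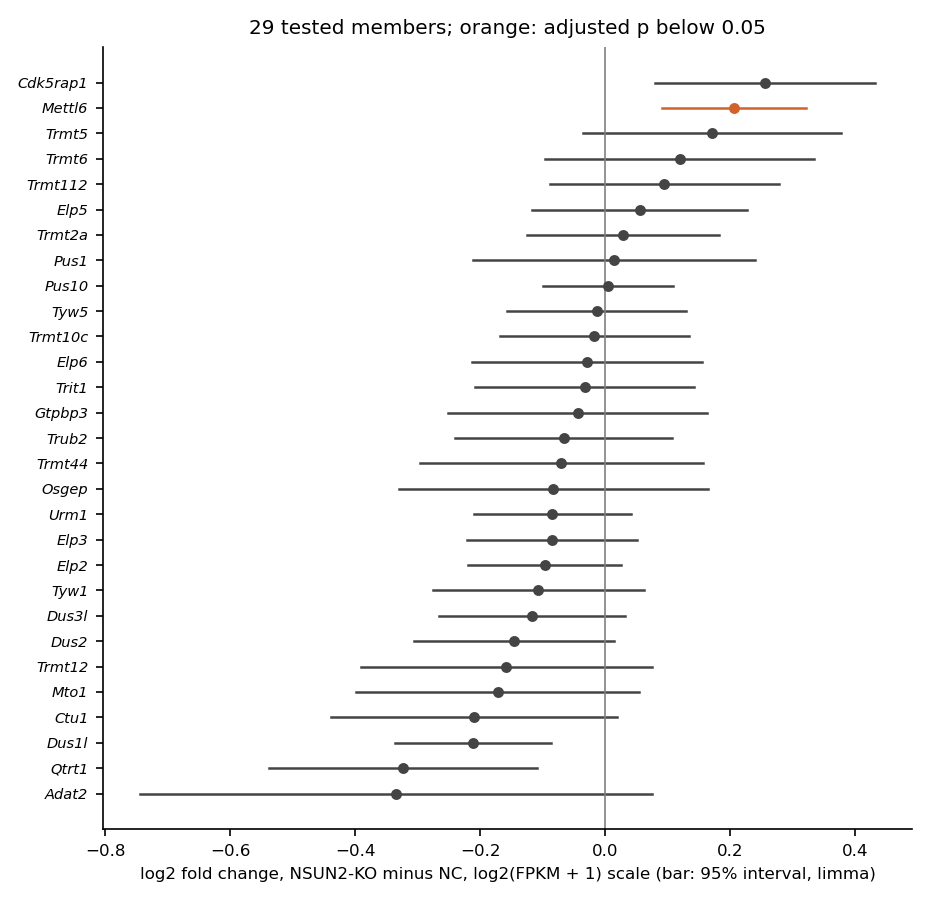
Log2 fold change (x axis, NSUN2-KO minus NC on the log2(FPKM + 1) scale) with its 95% limma interval (bar) for each of the 29 tested members. Mettl6, in orange, is the member called at an adjusted p below 0.05; the intervals of Dus1l, Qtrt1 and Cdk5rap1 also leave out 0 but their adjusted p-values lie between 0.0517 and 0.0805.

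The precision sets what these 28 uncalled members allow. The 95% interval of 27 of them lay within a 1.5-fold change in either direction on the log2(FPKM + 1) scale, Adat2 being the exception. This scale understates changes of genes near 1 FPKM, so the recovered reads were also tested with limma voom, a choice made after the data were seen. Genes with a mean of at least 10 reads per library entered, which brought in 49 members, 20 of them from below 1 FPKM. Of these 49 members 2 were called, both higher (4.08%, against 9.85% of all 13659 genes in that test). They were Mettl6 and Thg1l. Among the other 47 members 35 had an interval within 1.5-fold and 39 within 2-fold.

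Base methyltransferases were the role with the called gene. Mettl6, which places 3-methylcytidine on serine tRNAs, measured 5.12, 4.69 and 4.82 FPKM in NC against 5.80, 5.88 and 5.65 FPKM in NSUN2-KO, in order of replicate number here and below. All 3 NSUN2-KO libraries lay above all 3 NC libraries. The NC mean was 4.88 ± 0.22 FPKM and the NSUN2-KO mean 5.78 ± 0.12 FPKM (SD, n = 3 per group), so that NSUN2-KO stood at 119% of NC. Mettl6 rose by a log2 fold change of 0.21 (SE 0.05, limma adjusted p = 0.0448) on 1462 to 1807 reads per library. The read-based test gave a log2 fold change of 0.25 (SE 0.06, limma voom adjusted p = 0.00889). In the FPKM-based test the call was lost without any single library (adjusted p from 0.0509 without NC replicate 1 to 0.141 without NC replicate 3), and in the read-based test it was lost without NC replicate 2 (adjusted p = 0.0544). The FPKM-based call was also lost with no filter on low values (adjusted p = 0.103).

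Mettl6 (ENSMUSG00000021891) lies on GRCm38 chromosome 14, positions 31473578 to 31495040, minus strand. Its 5′ end overlaps that of Eaf1, an elongation factor subunit on the plus strand that starts at position 31494399, 641 bases inside the end of Mettl6. The exons of both genes share 139 bases, 1.79% of those of Mettl6. Eaf1 measured 33.0, 32.8 and 31.0 FPKM in NC against 37.9, 35.8 and 35.1 FPKM in NSUN2-KO. The Eaf1 groups did not overlap either, and its log2 fold change of 0.16 (SE 0.04) had a limma adjusted p of 0.0534, short of the threshold. The part of the shared bases in the Mettl6 value was not tested. Such a neighbour, a protein-coding gene on the other strand with its 5′ end within 1000 bases, was found for 21 of the 52 members. In the 8 pairs in which both genes were tested the fold changes had the same sign in 3.

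No other tested methyltransferase of tRNA bases or partner was called. Among the 13 members of this role 8 lay below the minimum for testing. Mettl2, the 3-methylcytidine enzyme of threonine and arginine tRNAs, measured 0.910 ± 0.080 FPKM in NC against 1.01 ± 0.18 FPKM in NSUN2-KO (SD, n = 3). Trmt112, the activating partner of several methyltransferases including Trmt11 and Alkbh8, had 3.83 ± 0.24 FPKM in NC against 4.18 ± 0.50 FPKM in NSUN2-KO. Trmt10c, which methylates mitochondrial tRNAs and is part of mitochondrial RNase P, had 3.68 ± 0.28 and 3.62 ± 0.19 FPKM. Trmt2a, the 5-methyluridine enzyme, had 2.14 ± 0.12 and 2.21 ± 0.13 FPKM. For these 3 tested genes the 95% intervals of the log2 fold change were -0.09 to 0.28 (Trmt112), -0.17 to 0.13 (Trmt10c) and -0.13 to 0.18 (Trmt2a). Trmt1, the dimethylguanosine enzyme, Trmt11, Trmt10a and Alkbh1, a dioxygenase that removes 1-methyladenosine, all lay below 1 FPKM. NSUN2-KO stood at 90.9% (Trmt10a) to 105% (Alkbh1) of NC in these 4.

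Partner subunits of the same enzyme were listed at unequal levels per length. Trmt6, the non-catalytic subunit of the 1-methyladenosine enzyme, measured 1.87 ± 0.32 FPKM in NC against 2.11 ± 0.15 FPKM in NSUN2-KO. Its catalytic partner Trmt61a had 0.354 ± 0.11 and 0.253 ± 0.067 FPKM, on 18 to 43 reads per library. Trmt61a was thus at 0.0967 to 0.283 of the Trmt6 level in the 6 libraries. Wdr4, the scaffold of the 7-methylguanosine enzyme, measured 0.482 ± 0.012 FPKM in NC against 0.516 ± 0.043 FPKM in NSUN2-KO, whereas the catalytic subunit Mettl1 had 3 to 19 reads per library, at 0.0456 to 0.329 of the Wdr4 level. At so few reads the interval of Mettl1 in the read-based test ran from -0.19 to 2.46 on the log2 scale, and a difference was not detectable at this depth. Group ranges of the partner ratios overlapped for both complexes.

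The 2′-O-methyltransferases of tRNA ribose had near-equal group means. Trmt44 measured 1.37 ± 0.24 FPKM in NC against 1.25 ± 0.15 FPKM in NSUN2-KO (log2 fold change -0.07, 95% interval -0.30 to 0.16). Ftsj1, the anticodon loop enzyme and the only X-linked member, had 0.875, 1.09 and 0.939 FPKM in NC against 0.993, 1.01 and 0.878 FPKM in NSUN2-KO. The interval of Ftsj1 in the read-based test was -0.34 to 0.31. Sex-linked genes differed between the groups: Xist, the RNA of the inactive X chromosome, measured 14.0 to 15.5 FPKM in NC against 29.4 to 31.8 FPKM in NSUN2-KO. Kdm5d, Uty, Ddx3y and Eif2s3y, which lie on the Y chromosome, had reads in all 3 NC libraries and 0 in all 3 NSUN2-KO libraries. Sex composition and genotype cannot be told apart in this design for any member.

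Elongator and the cytosolic wobble uridine enzymes held the 3 members with the highest levels, Elp2, Elp5 and Urm1. Elongator attaches the first side group to the wobble uridine, Alkbh8 methylates it, and Urm1 with Ctu1 and Ctu2 adds sulfur to the base. Elp2, a scaffold subunit, measured 11.2, 10.6 and 11.9 FPKM in NC against 10.5, 10.01 and 10.7 FPKM in NSUN2-KO. Elp3, the catalytic subunit, measured 3.56, 3.98 and 3.75 FPKM in NC against 3.32, 3.55 and 3.59 FPKM in NSUN2-KO. Both sets overlapped between groups, and the 95% intervals of the log2 fold change were -0.22 to 0.03 for Elp2 and -0.22 to 0.05 for Elp3. Within the accessory subcomplex Elp5 stood at 9.88 ± 1.10 FPKM in NC against 10.3 ± 0.52 FPKM in NSUN2-KO, Elp6 at 1.08 ± 0.099 and 1.04 ± 0.079 FPKM, and Elp4 at 0.455 ± 0.20 and 0.569 ± 0.13 FPKM. Elp6 was at 0.0958 to 0.126 and Elp4 at 0.0257 to 0.0713 of the Elp5 level. The deposited length of Elp2, 2789 bases, was shorter than the 6276 exon bases of that gene in GENCODE vM21, so its rank at the top depends on the gene model.

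The sulfur branch gave values on both sides of NC. Urm1, the sulfur carrier, measured 7.04 ± 0.48 FPKM in NC against 6.58 ± 0.10 FPKM in NSUN2-KO (log2 fold change -0.08, limma adjusted p = 0.382). Ctu1, a thiolase subunit, had 1.53, 1.64 and 1.73 FPKM in NC against 1.57, 1.02 and 1.27 FPKM in NSUN2-KO, with NSUN2-KO replicate 1 inside the NC range (log2 fold change -0.21, adjusted p = 0.234). Its partner Ctu2 had 0.604 ± 0.097 FPKM in NC against 0.673 ± 0.049 FPKM in NSUN2-KO. Alkbh8 had 0.861 ± 0.039 and 0.899 ± 0.079 FPKM. Of the 6 tested members of this role 5 had a negative and 1 a positive fold change, and none was called.

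Mitochondrial wobble uridines are modified by Gtpbp3 with Mto1, which attach a taurine side group, and by Trmu, which adds sulfur. Gtpbp3 measured 3.18 ± 0.36 FPKM in NC against 3.05 ± 0.35 FPKM in NSUN2-KO. Mto1 measured 2.61, 2.68 and 1.95 FPKM in NC against 2.20, 2.01 and 1.86 FPKM in NSUN2-KO (log2 fold change -0.17, limma adjusted p = 0.324). NC replicate 3 lay inside the NSUN2-KO range. Trmu had 0.596 ± 0.086 and 0.606 ± 0.027 FPKM.

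Beside the anticodon 4 members modify adenosine, and none of the 3 tested was called. Cdk5rap1, which adds a methylthio group in mitochondrial tRNAs, measured 1.45, 1.48 and 1.70 FPKM in NC against 2.24, 1.93 and 1.95 FPKM in NSUN2-KO, with no overlap. NSUN2-KO stood at 132% of NC, the log2 fold change was 0.26 (SE 0.08), and the limma adjusted p of 0.0805 missed the threshold. Trit1, which makes the isopentenyl adenosine that Cdk5rap1 acts on, had 6.12 ± 0.22 FPKM in NC against 5.98 ± 0.72 FPKM in NSUN2-KO (95% interval of the log2 fold change -0.21 to 0.14). Cdkal1, the cytosolic relative of Cdk5rap1, lay below the minimum for testing, at 0.390 ± 0.047 and 0.373 ± 0.032 FPKM. Osgep, the catalytic subunit of the threonylcarbamoyl transferase complex, had 1.09 ± 0.18 and 0.971 ± 0.20 FPKM. A test of Cdk5rap1 against Trit1, Cdkal1 or Osgep was not made.

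Wybutosine, the tricyclic guanosine of phenylalanine tRNA, is built in steps from the 1-methylguanosine that Trmt5 places. Trmt5 measured 3.35, 2.74 and 2.85 FPKM in NC against 3.34, 3.97 and 3.15 FPKM in NSUN2-KO (log2 fold change 0.17, limma adjusted p = 0.278), with overlap. Tyw1, which makes the base tricyclic, measured 1.60, 1.63 and 1.75 FPKM in NC against 1.56, 1.33 and 1.53 FPKM in NSUN2-KO. The Tyw1 groups did not overlap, but the fold change of -0.11 was within the spread that limma allowed (adjusted p = 0.411). Trmt12, the next enzyme of the route, had 2.16 ± 0.33 and 1.83 ± 0.25 FPKM, Tyw5, a hydroxylase of the last steps, 2.83 ± 0.15 and 2.79 ± 0.14 FPKM, and Tyw3 0.159 ± 0.052 and 0.102 ± 0.039 FPKM. Qtrt1, the catalytic subunit that exchanges guanine for queuine at the wobble position, measured 1.56, 1.43 and 1.98 FPKM in NC against 1.06, 1.13 and 1.16 FPKM in NSUN2-KO. The 3 NSUN2-KO values lay below all NC values, at 67.4% of the NC mean. The log2 fold change of Qtrt1 was -0.32 (SE 0.09), and its adjusted p of 0.0736 missed the threshold.

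Dihydrouridine synthases reduce uridines in the D loop and variable loop. Among these 4 members 3 were tested, and none was called. Dus1l measured 3.66, 3.63 and 3.62 FPKM in NC against 2.87, 3.03 and 3.12 FPKM in NSUN2-KO. Dus2 measured 2.02, 2.03 and 2.11 FPKM in NC against 1.62, 1.93 and 1.74 FPKM in NSUN2-KO. Dus3l measured 2.40, 2.36 and 2.66 FPKM in NC against 2.15, 2.17 and 2.29 FPKM in NSUN2-KO. In these 3 members the NSUN2-KO libraries lay below the NC libraries, at 82.7%, 85.9% and 89.0% of NC, a separation found in either direction in 31.1% of all tested genes and downward in 1577 of 9443. The log2 fold change and limma adjusted p were -0.21 and 0.0517 for Dus1l, -0.15 and 0.238 for Dus2, and -0.12 and 0.302 for Dus3l. The fourth, Dus4l, had only 2 to 8 reads per library. Dus1l passed the threshold when limma was run without the mean-variance trend (adjusted p = 0.0392) and when only protein-coding genes were tested (adjusted p = 0.0380).

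Pseudouridine synthases isomerize uridine at many sites. Pus10 measured 6.80, 6.69 and 6.58 FPKM in NC against 6.48, 6.76 and 6.91 FPKM in NSUN2-KO, the narrowest interval of the 29 tested members (log2 fold change 0.00, 95% interval -0.10 to 0.11). Trub2, a mitochondrial enzyme, had 2.55 ± 0.20 FPKM in NC against 2.39 ± 0.21 FPKM in NSUN2-KO, and Pus1 1.23 ± 0.17 and 1.26 ± 0.20 FPKM. Trub1 had 0.0725 ± 0.039 and 0.0857 ± 0.031 FPKM. Pus7 had 11 to 37 reads per library, and its 3 NSUN2-KO values (0.0450, 0.0619 and 0.119 FPKM) lay above its NC values (0.0375, 0.0290 and 0.0339 FPKM). In the read-based test the Pus7 log2 fold change was 1.03 with a 95% interval of -0.02 to 2.08 and an adjusted p of 0.237 (limma voom).

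Adenosine deaminases turn adenosine into inosine. Adat2, the catalytic subunit of the wobble deaminase, measured 2.49, 1.36 and 1.48 FPKM in NC against 0.798, 1.21 and 1.56 FPKM in NSUN2-KO. These groups overlapped, and the log2 fold change of -0.34 had the widest interval of the tested members, -0.74 to 0.07 (limma adjusted p = 0.284). Adat1, which acts on alanine tRNA, had 8 to 29 reads per library. Adat3, the partner of Adat2, was listed at 0 in every library.

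Thg1l (chromosome 11), which adds the extra guanylate to the 5′ end of histidine tRNA, was the other member called higher in the read-based test. It measured 0.463, 0.362 and 0.254 FPKM in NC against 0.743, 0.633 and 0.627 FPKM in NSUN2-KO, without overlap, on 30 to 90 reads per library. NSUN2-KO stood at 186% of NC, and Thg1l rose by a log2 fold change of 0.93 (SE 0.28, 95% interval 0.34 to 1.51, limma voom adjusted p = 0.0385). That call held without NC replicate 1 (adjusted p = 0.0355). It was lost without any other library, with adjusted p from 0.0528 without NSUN2-KO replicate 3 to 0.200 without NC replicate 3. Below 1 FPKM, Thg1l did not enter the FPKM-based test, and with no filter on low values its adjusted p was 0.191.

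**Figure D3:**
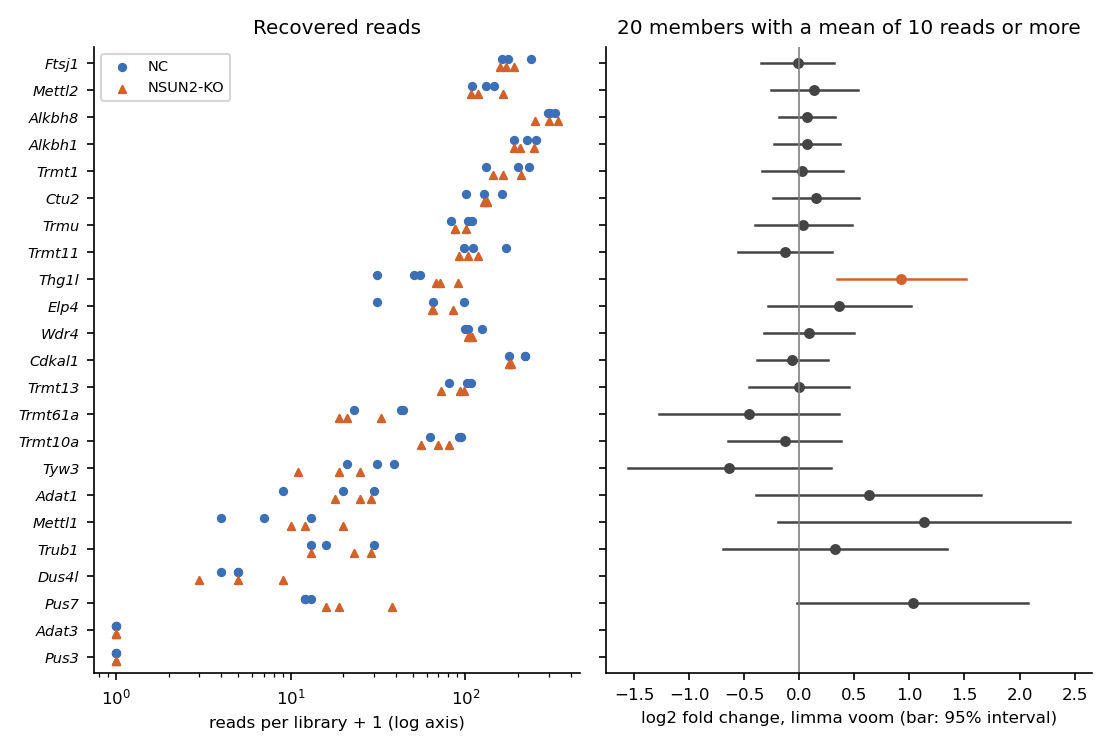
Left, recovered reads per library plus 1 (log axis) of the 23 members below a mean of 1 FPKM, NC as blue circles and NSUN2-KO as orange triangles. Right, log2 fold change with its 95% interval (bar) from limma voom for the 20 of them with a mean of at least 10 reads. Thg1l, in orange, is called, and intervals widen to over 2 log2 units for Mettl1, Pus7, Adat1 and Trub1.

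For 2 members the table gave no reads at all. Adat3 and Pus3, a pseudouridine synthase of the anticodon stem-loop, had 0 reads in all 6 libraries. In GENCODE vM21, of the same build as the files, 100% of the exon bases of Adat3 also belong to other genes on the same strand, mainly the read-through gene model Gm49322 and Scamp4, and 88.1% of those of Pus3 belong to Hyls1 on the opposite strand. Gm49322, Scamp4 and Hyls1 were themselves at means of 0.0282, 0.0157 and 0.168 FPKM. Of the 340 protein-coding genes with at least 80% of exon bases shared, 75.6% were listed at 0 in every library. The share was 14.2% of the 6200 that share some but less than 80%, and 35.4% of the 15411 that share none. The part of the overlap in the zeros of Adat3 and Pus3 was not tested. No level can be given for Adat3 or Pus3 from this table. A further 10 members shared 10% to 47.3% of exon bases, with Ctu2 (Piezo1), Trmt112 (mainly Prdx5) and Pus1 the highest, and 32 members shared none. Prdx5, at 316.5 FPKM on average, was higher in NSUN2-KO (log2 fold change 0.25, limma adjusted p = 0.0124, or 0.0588 without NSUN2-KO replicate 1), and its part in the Trmt112 value was not tested.

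Base composition moved with the fold changes of the members as it did over all genes. Across the 29 tested members, which share the same libraries, GC content of the transcripts and log2 fold change were correlated at -0.34 (Spearman) and -0.37 (Pearson), and over the 9433 tested genes with a GC value the correlations were -0.37 and -0.27. Dus1l (55.9% GC), Qtrt1 (58.5%) and Ctu1 (58.6%) were among the GC-rich members with lower values, and Trmt5 (43.4%) and Mettl6 (46.5%) among the GC-poor members with higher values. Others went the other way: Trmt112 (57.0%) and Pus1 (56.4%) had fold changes of 0.10 and 0.01, and Trmt12 (45.5%) and Mto1 (47.1%) of -0.16 and -0.17. Negative fold changes made up 10 of the 14 members above the members' median GC content and 10 of the 15 at or below it. A per-library loess on GC content and length, fitted over the tested genes, was then subtracted. This step removes such a relation by its construction. The Spearman correlation became -0.02 over all tested genes and -0.02 in the members. After it Mettl6 kept its call (log2 fold change 0.18, limma adjusted p = 0.0486). Dus1l then stood at -0.15 (adjusted p = 0.140) and Qtrt1 at -0.25 (adjusted p = 0.158). The log2 fold change of Dus3l went from -0.12 to -0.03. The part of base composition in the members' values was not tested.

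**Figure D4:**
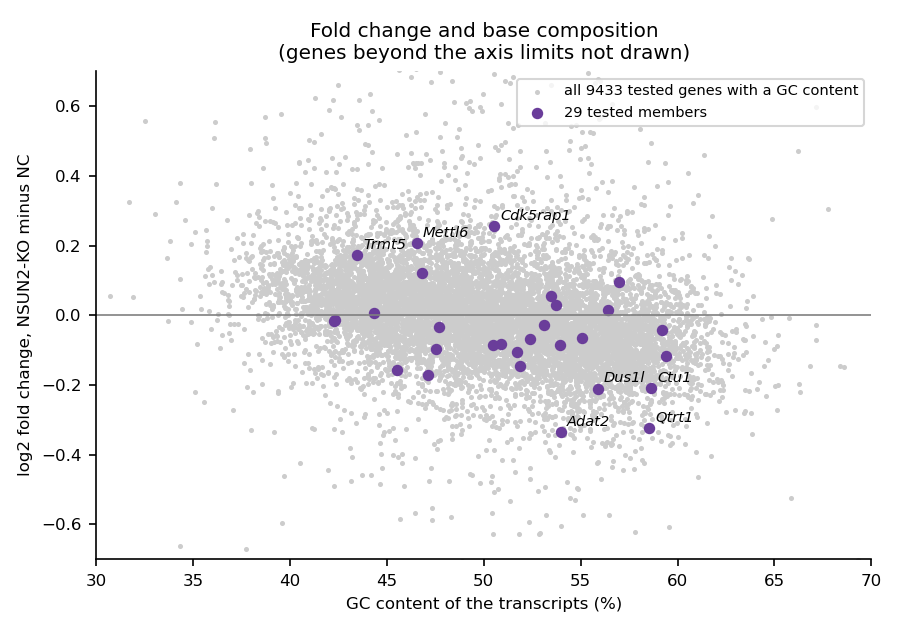
Log2 fold change (y axis, NSUN2-KO minus NC) against the GC content of the transcripts in percent (x axis). The 9433 tested genes with a GC value are in grey and the 29 tested members in purple, and genes beyond the axis limits are not drawn. Lower values are more frequent at high GC content among all genes, and Dus1l, Qtrt1 and Ctu1 sit in that part of the plot.

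Other genes of tRNA modification were listed from knowledge of the pathway. They filled 40 rows, 2 of them for Trp53rk, and 21 rows reached 1 FPKM. Of these 1 was lower and 0 were higher at an adjusted p below 0.05 (4.76%, against 8.49% of all tested genes, 4.3% lower), and the median log2 fold change was -0.04. Lage3, an X-linked subunit of the complex that holds Osgep, measured 3.27 ± 0.094 FPKM in NC against 2.56 ± 0.22 FPKM in NSUN2-KO. Lage3 fell by 0.26 on the log2 scale (SE 0.07, limma adjusted p = 0.0488). That call was lost without any single library (adjusted p from 0.0528 to 0.146) and under 6 of 11 other alternatives, both rescalings of the libraries among them. Hsd17b10, also X-linked and a partner of Trmt10c in mitochondrial RNase P, measured 10.7 ± 0.87 and 8.88 ± 1.08 FPKM (adjusted p = 0.127). Rpusd1, a pseudouridine synthase relative, measured 4.63 ± 0.49 and 3.85 ± 0.29 FPKM (adjusted p = 0.141). Dtwd1, which makes an aminocarboxypropyl uridine, measured 1.20 ± 0.24 and 1.76 ± 0.23 FPKM (adjusted p = 0.0932).

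As a check of the labels, Nsun2 measured 1.88, 2.04 and 1.84 FPKM in NC against 0.967, 1.36 and 0.863 FPKM in NSUN2-KO, 55.4% of NC (log2 fold change -0.51, limma adjusted p = 0.0228). That call held without NSUN2-KO replicate 2 (adjusted p = 0.0123) and was lost without any other library (0.0532 to 0.0848). The read-based test gave Nsun2 a log2 fold change of -0.89 (limma voom adjusted p = 9.75e-05). Of 11 alternatives that kept all libraries, that test among them, 10 called Nsun2. The exception was the fit in which low values were kept (limma adjusted p = 0.113). Nsun3, Nsun6 and Trdmt1, the other 5-methylcytosine enzymes of tRNA, were at 104%, 97.1% and 116% of NC, none of them called. Library totals were 35019033 to 45636131 reads. Macrophage markers (Adgre1, Csf1r, Cd68, Itgam, Lyz2 and Mertk) were present in every library, with summed levels of 3161 to 3235 FPKM in NC against 2594 to 2630 FPKM in NSUN2-KO. Most of that difference was Lyz2, at 1736 FPKM on average in NC against 1163 FPKM in NSUN2-KO. Lyz2 and Cd68 were called lower, and Csf1r and Itgam stood at 101% and 102% of NC. Adgre1 stood at 107% and Mertk at 90.8%, each without overlap and not called. The 8 M1 markers summed to 4862 to 4935 and 5679 to 5957 FPKM, and the 8 neutrophil markers to 98.9 to 107 and 79.8 to 83.7 FPKM. Of the 8 M1 markers 7 were called higher, from Nos2 at 116% of NC to Il6 at 214%. Cd86 stood at 98.4% and was not called. Of the 5 neutrophil markers tested 3 were called lower (Csf3r, Mmp8 and S100a9) and 0 higher. The 4 dendritic cell markers summed to 4.94 to 5.99 and 8.06 to 9.23 FPKM, and the 5 fibroblast markers to 1.51 to 1.72 and 0.713 to 0.996 FPKM. Of the 2 dendritic cell markers tested Ccr7 was called higher and Xcr1 was not called. Within the fibroblast list Col1a1 and Col1a2 were at 29.4% and 37.1% of NC, Pdgfrb at 106% and Dcn at 217%, all below the minimum for testing. The 7 T and NK cell markers stayed below 0.182 FPKM in sum, with Cd3e and Cd3g at 0 in all libraries, the 4 B cell markers below 0.357 FPKM, and the 3 erythroid markers were all at 0. The part of these marker differences in the members' values was not tested, and in such bulk samples fewer cells of a type and less RNA per cell cannot be told apart.

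**Figure D5:**
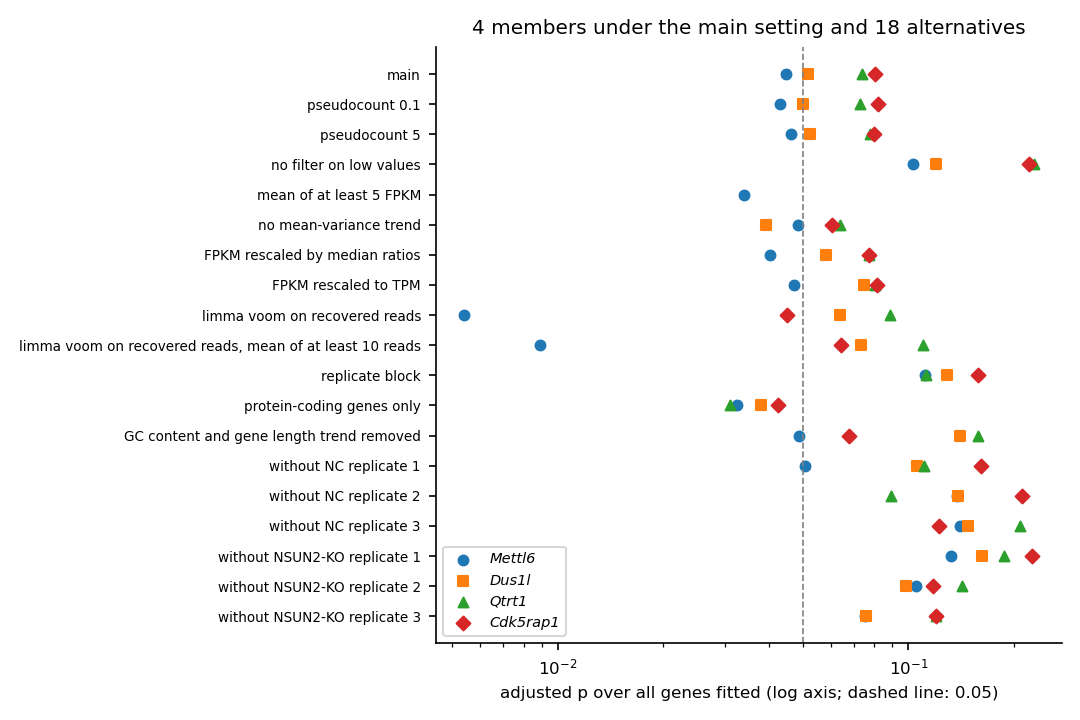
Adjusted p (log axis; dashed line at 0.05) of Mettl6, Dus1l, Qtrt1 and Cdk5rap1 under the main setting and 18 alternatives. Mettl6 is below 0.05 under 10 of the 18 and Dus1l, Cdk5rap1 and Qtrt1 under 2, 2 and 1 of the 17 in which they were fitted.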

How the data were processed

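The deposited table held FPKM values with the gene length the authors used. RNA was extracted with TRIzol and libraries made with a commercial kit, per the labels' protocols. HISAT2 2.0.5 and featureCounts 1.5.0-p3 are named beside fastp and CASAVA 1.8 in the submitters' processing notes, as are DESeq2 1.20.0 and GRCm38; the annotation release and strand setting are not stated there. The deposited gene lengths equalled the union of GENCODE vM21 exons in 49 of 52 members. FPKM times length gave whole reads (tolerance 0.01) for 100% of values above 0.

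Genes averaging 1 FPKM or more entered limma 3.58.1 in R 4.3.3. The fit used log2(FPKM + 1), a trended prior variance, all 6 libraries and no covariate, with Benjamini-Hochberg adjustment. Columns were matched to samples by group and replicate number, and 0 columns belonged to no sample. No library pair was a duplicate (chi-square per gene 5.66 to 11.6 within groups, 19.3 to 30.3 between, where sampling gives 1). The procedure was tested on simulated reads with known fold changes. Spread beyond sampling was set to the same value for every gene, so the precision for single members was not tested. Members, roles and lists were chosen with earlier results of these data known. All members could be named, with full statistics for those called and up to 3 per role by p, and of other tRNA genes those called and up to 4 by p; neighbouring and overlapping genes were named after their values were seen. Alternatives were other pseudocounts (0.1 and 5) and filters (none, or a mean of 5 FPKM), no trend, 2 rescalings, limma voom on recovered reads, a replicate block, protein-coding genes only, a loess over GC content and length (span 0.5), and leaving out each library. The read-based test called 1346 of 13659 genes. Its form for genes averaging 10 reads or more was added after seeing the data. Python 3.11.15 was used for tables.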

Additional observations from a re-analysis of the deposited data

How the results depend on the processing

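The count of members called lower was 0 as reported, 1 without the mean-variance trend and 2 among protein-coding genes only. The count called higher, 1 as reported, was 0 with no filter on low values or with the replicate block, and 2 with limma voom, with limma voom at a mean of 10 reads, and among protein-coding genes only. Without each library in turn it was 0 to 0, and the count called lower was 0 to 0. Where limma called 0 members, an unadjusted p below 0.05 was found for 5 of 29 members in each fit without 1 library. It was found for 5 of 50 with no filter and for 4 of 29 with the block. The share of all tested genes at that level was 25.5% in the main test and is not given for these fits. Of the other tRNA modification genes, the 1 called lower became 0 with no filter, at a mean of 5 FPKM, with median ratios, TPM, limma voom or the replicate block, and 0 to 0 without each library; 1 was called higher among protein-coding genes only. Over all genes, lower and higher calls (406 and 396) became 118 and 147 with no filter, 624 and 779 with limma voom, and 161 and 190 with the replicate block. Among the 8521 protein-coding genes they were 541 and 480, beside 4 of the 29 members. Lower calls were 254 without the trend. Without each library lower calls ranged from 121 to 283 and higher calls from 149 to 312, both lowest without NSUN2-KO replicate 1 and highest without NC replicate 1. The cause of these differences was not tested. Of 499 single-member fold changes under an alternative, 468 kept direction and side of the threshold, 0 called values reversed, and 18 uncalled values changed sign. Same-numbered libraries did not deviate together (r = -0.00952, -0.0298 and 0.00343). With 3 libraries per group this cannot show whether they shared an animal or a batch, and the labels do not say. The block changed the call of Mettl6 (limma adjusted p = 0.112) and of no other member. The read-based intervals of 8 members reach past 2-fold, and 3 more had too few reads to be fitted.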
